A study of Caenorhabditis elegans with 2 samples.

Results

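The genes described here encode the initiation and elongation factors of translation in Caenorhabditis elegans. They were taken as all protein-coding genes of the Ensembl annotation of assembly WBcel235 whose names start with eif-, eef-, iff-, ife-, ifg-, inf-, efk-, etf-, tufm-, tsfm- or gfm-. This gave 45 of 19973 protein-coding genes, of which 25 carried the prefix eif- and 0 the prefix etf-. Chromatin from whole young adults of mixed sex, aged 72 hours and synchronised by starving hatched larvae after bleaching, was immunoprecipitated with an antibody against GFP and sequenced. All animals were of strain OP214, which carries the mutation unc-119(ed3) on chromosome III and the transgene wgIs214, from which K12H6.12 is expressed as a fusion to GFP and FLAG at its C-terminus. There was 1 group with 2 biological replicates, numbered 2 and 3, so no comparison between conditions could be made and no test between groups was run. Whole animals were used, so each value averages over all tissues and cannot be assigned to one, and 1 transgenic line stands for the factor.

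Initiation brings the initiator tRNA, the small ribosomal subunit and the capped mRNA together at a start codon. eIF2 carries the initiator tRNA and is recharged by eIF2B, eIF3 is the scaffold on the small subunit, and eIF4E, eIF4G and eIF4A bind the cap and open the mRNA. During elongation, eEF1A delivers aminoacyl-tRNAs and is recharged by the eEF1B complex, and eEF2 moves the ribosome along; mitochondria use a separate set of factors related to bacterial ones. These genes are expressed in all growing cells, and several exist in C. elegans as pairs with one copy used mostly in the germ line and the other in somatic tissue.

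The deposited data were 4 lists of peaks, regions where sequenced fragments piled up over a control. Replicate 2 had 27073 peaks and replicate 3 had 30000, both lists reaching down to weak peaks. A list called on both replicates pooled had 30000 and was deposited as peaks and background. An entry in these full lists can therefore be background. The replicate 2 summit counted at eif-3.G, for example, had a deposited −log10 q-value of 0.02. The fourth list held 2268 peaks, deposited as those passing a filter on reproducibility between replicates (irreproducible discovery rate, IDR). Each peak has a summit, its highest point, and a signal, a score whose scaling is not stated. Levels are therefore compared within one list, and a ratio between the replicate lists is read only beside the same ratio over all coding genes. A gene's promoter window reached 1000 bp upstream and 200 bp into the gene from its annotated 5' end, and the strongest peak with its summit there gave the gene's value. Over coding genes, pooled signal was at least 98.0 with an IDR summit and at most 97.9 without. Membership of the IDR list thus went with pooled strength, and "reproducible" below only names that list. Of 1418 coding genes with an IDR summit, 1396 had a summit in both replicate lists. Peak lists hold no read totals, so the depth of the libraries is unknown.

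The sequence under the summits is shown first for the genes on which the results turn: the strongest factor gene and its paralogue, both eEF1A genes, both eef-1B genes, and 2 further strong peaks on other factors. Each sequence is the 201 bases centred on the summit, 5' to 3' on the strand of the gene, from the ce11 (WBcel235) reference. Capitals mark matches on either strand to the 5 motifs searched: the repeat GAGAGA, the TATA box as TATAAA, the palindromic E-box CACGTG, the alternating run GCGCGC and the splice acceptor consensus TTTCAG.
iff-2 (eIF5A), chrII:8561326-8561526, minus strand, reproducible peak: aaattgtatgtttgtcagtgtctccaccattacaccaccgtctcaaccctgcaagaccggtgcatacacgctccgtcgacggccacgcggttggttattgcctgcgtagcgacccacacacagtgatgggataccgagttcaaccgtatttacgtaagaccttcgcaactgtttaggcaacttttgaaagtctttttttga
iff-1 (eIF5A), chrIII:9747231-9747431, minus strand, weak pooled peak: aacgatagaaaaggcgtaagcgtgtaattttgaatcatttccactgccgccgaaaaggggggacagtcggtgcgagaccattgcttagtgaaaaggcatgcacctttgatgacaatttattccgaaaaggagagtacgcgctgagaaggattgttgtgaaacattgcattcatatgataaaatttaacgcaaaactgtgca
eef-1A.2 (eEF1A), chrX:7823155-7823355, plus strand, reproducible peak: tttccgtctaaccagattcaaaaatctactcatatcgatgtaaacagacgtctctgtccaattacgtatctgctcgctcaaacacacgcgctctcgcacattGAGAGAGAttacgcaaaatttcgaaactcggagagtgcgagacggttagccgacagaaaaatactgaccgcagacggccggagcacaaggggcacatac
eef-1A.1 (eEF1A), chrIII:6971988-6972188, minus strand, reproducible peak: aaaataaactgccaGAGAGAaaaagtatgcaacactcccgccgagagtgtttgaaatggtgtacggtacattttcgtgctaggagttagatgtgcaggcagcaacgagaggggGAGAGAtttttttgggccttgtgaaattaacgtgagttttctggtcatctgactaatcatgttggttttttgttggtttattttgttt
eef-1B.1 (eEF1B), chrIII:7973283-7973483, minus strand, reproducible peak: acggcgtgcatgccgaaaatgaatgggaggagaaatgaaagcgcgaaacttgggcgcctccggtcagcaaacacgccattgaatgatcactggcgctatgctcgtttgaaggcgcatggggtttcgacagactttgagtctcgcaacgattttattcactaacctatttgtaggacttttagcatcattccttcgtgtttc
eef-1B.2 (eEF1B), chrIV:15037105-15037305, plus strand, weak pooled peak: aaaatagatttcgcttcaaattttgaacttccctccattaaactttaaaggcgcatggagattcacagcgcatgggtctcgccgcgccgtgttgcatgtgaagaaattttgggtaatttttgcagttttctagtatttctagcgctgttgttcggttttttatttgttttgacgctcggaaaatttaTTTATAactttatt
eef-1G (eEF1B gamma), chrV:10965603-10965803, plus strand, reproducible peak: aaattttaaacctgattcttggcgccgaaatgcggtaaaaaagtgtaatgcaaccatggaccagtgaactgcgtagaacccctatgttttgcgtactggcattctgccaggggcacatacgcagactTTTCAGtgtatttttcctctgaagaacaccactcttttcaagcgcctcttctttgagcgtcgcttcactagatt
eif-3.B (eIF3 subunit), chrII:14795027-14795227, plus strand, reproducible peak: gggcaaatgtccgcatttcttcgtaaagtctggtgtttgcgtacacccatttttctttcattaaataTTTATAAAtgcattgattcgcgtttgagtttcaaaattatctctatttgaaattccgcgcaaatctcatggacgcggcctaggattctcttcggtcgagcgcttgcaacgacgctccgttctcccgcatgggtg

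A promoter summit in the IDR list was found at 14 of the 45 factor genes, or 31.1% (exact binomial 95% interval 18.2% to 46.6%, covering counting error over genes only). Among all protein-coding genes 7.10% (1418 genes) had one. Summits in both full replicate lists were found at 31 factor genes, or 68.9% (53.4% to 81.8%), against 22.6% of coding genes. The pooled list held a summit at 38, or 84.4%, against 35.3% of coding genes. When each replicate was restricted to its 2268 strongest peaks, 10 factor genes (22.2%) had a summit in both, against 5.16% of coding genes. At a deposited −log10 q-value above 2 in both replicates, 12 (26.7%) did, against 6.92%. The 10 genes were eef-1A.1, eef-1A.2, eef-1B.1, eef-1G, eef-2, eif-3.B, eif-3.C, eif-3.E, gfm-1 and iff-2, and the q-value added eif-2Bgamma and tufm-2. In each of these counts the share of factor genes was above the share of coding genes as a whole.

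The counts by role are set beside the 7.10% of all coding genes with an IDR summit. Of 11 elongation factor genes, cytosolic and mitochondrial, 6 had an IDR summit. Of 34 other genes, counted here as initiation factors with eIF5A and eif-4A3 among them, 8 did. Within the cytosolic elongation genes it was 5 of 7, within eIF3 4 of 11, within eIF2B 2 of 5 and within eIF5A 1 of 2. Among the cap-binding and scanning factors it was 1 of 7, and among eIF2 with the other carriers of initiator tRNA 0 of 5. These groups are small, and no difference between them or from the share of all coding genes was tested.

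**Figure D1:**
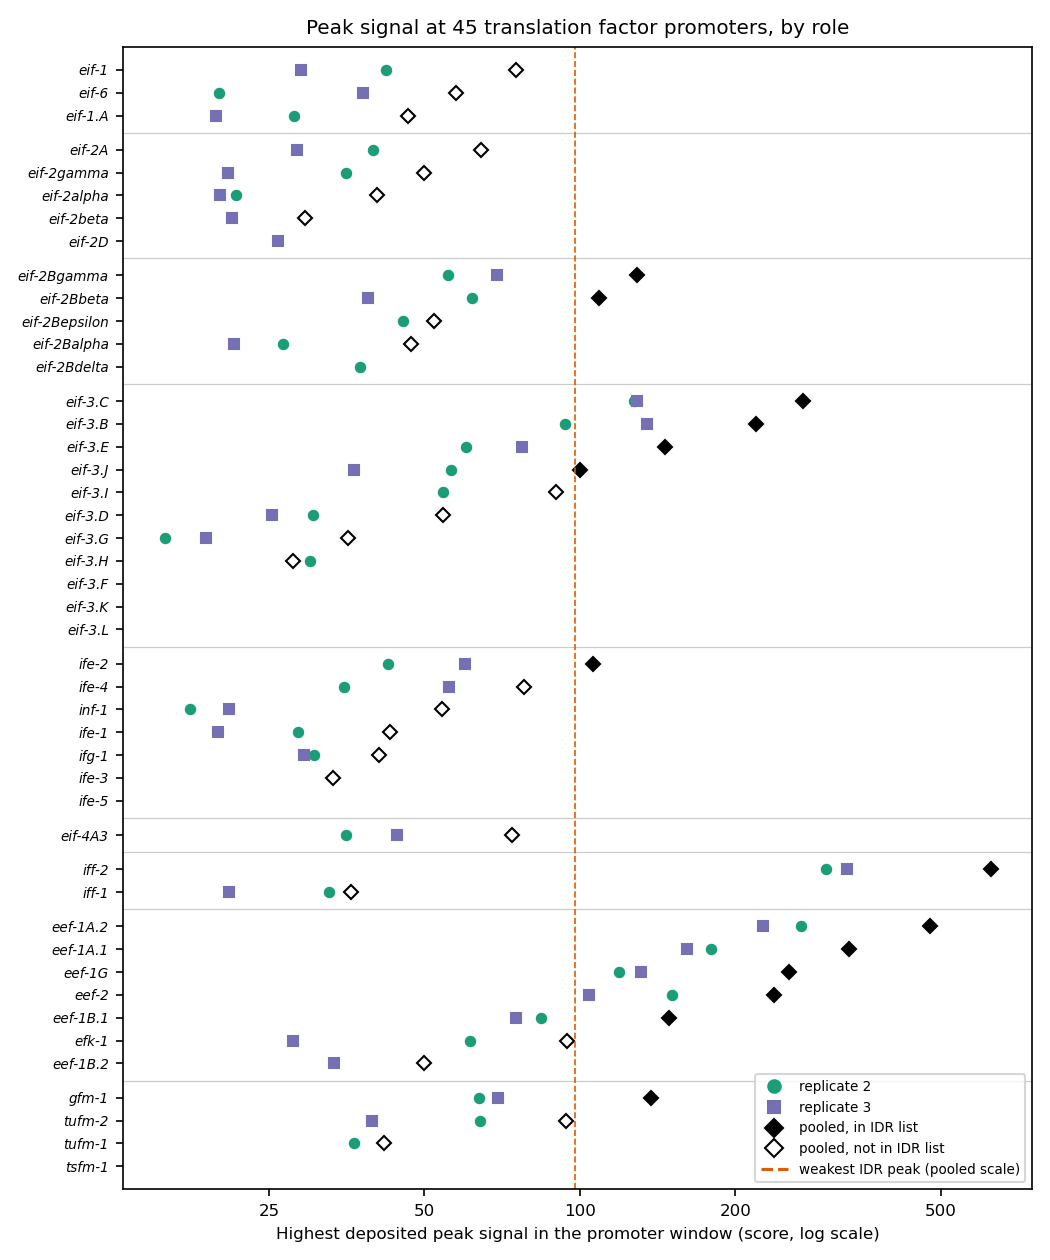
Highest promoter signal (score, log scale) of the 45 translation factor genes, grouped by role, with circles for replicate 2, squares for replicate 3 and diamonds for the pooled list, filled where the peak is in the IDR list; a gene with no summit has no symbol. The highest values belong to iff-2 and both eEF1A genes, while the eIF2 subunit genes all lie below the weakest IDR signal of 97.9.

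After iff-2, both eEF1A genes gave the strongest peaks of the factor genes. At eef-1A.2, one of the genes for eEF1A, the signal was 268 in replicate 2 and 226 in replicate 3, and 477 in the pooled list, rank 43 of the 2268 IDR peaks. At eef-1A.1, the other eEF1A gene, it was 179 and 161, and 332 pooled (rank 163). Both genes were therefore high in both replicates. The upstream region of eef-1A.1 is widely used to drive transgenes in most tissues. Their summits lay upstream at similar distances, 399 bp from the 5' end of eef-1A.2 (X:7823654-7825769, plus strand) and 376 bp from that of eef-1A.1 (III:6970026-6971712, minus strand). The 2 windows printed above have little sequence in common, the longest shared run, looked for after the sequences had been seen, being 8 bases. The summit of eef-1A.2 lay in no other coding gene's promoter window, whereas that of eef-1A.1 lay 165 bp upstream of rfc-4, a replication factor C subunit gene on the opposite strand, and 3 bp upstream of the annotated microRNA gene cel-mir-5549. Which of these genes the eef-1A.1 peak belongs to cannot be told apart from the lists.

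The summits of eef-1G, eef-2 and eef-1B.1 lay within 24 bp of the annotated 5' end. At eef-1G, for the gamma subunit of eEF1B, the signal was 119 in replicate 2 and 131 in replicate 3 (254 pooled), with the summit 16 bp upstream of the 5' end. At eef-2, for the translocation factor, it was 151 and 104 (238 pooled), with the summit 24 bp inside the 5' UTR. At eef-1B.1, for an exchange subunit of eEF1B, it was 84.0 and 75.1 (149 pooled), 3 bp inside the 5' UTR and also inside the non-coding RNA gene F54H12.9. All 3 genes face a coding gene on the opposite strand within 500 bp, namely ctf-4, clsp-1 and aco-2, whose promoter windows held the same summits; ctf-4 and clsp-1 are named for replication fork proteins and aco-2 for mitochondrial aconitase. The paralogue eef-1B.2 had no summit in replicate 2, 33.4 in replicate 3 and 49.9 in the pooled list, so it was seen in 1 replicate only. The windows of eef-1B.1 and eef-1B.2 share a run of 11 bases, aaggcgcatgg, on the same strand, also found after the sequences had been seen. The kinase gene of eEF2, efk-1, had 61.3 and 27.8, and 94.5 pooled, just under the weakest IDR signal of 97.9.

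eIF5A, which helps ribosomes past difficult peptide bonds, has 2 genes in C. elegans, iff-2 in somatic tissue and iff-1 in the germ line. iff-2 (II:8559375-8561367, minus strand) gave the strongest peak of all 45 genes, 299 in replicate 2 (rank 32), 329 in replicate 3 (rank 11) and 624 pooled (rank 19), with the summit 59 bp upstream of its 5' end. iff-1 had 32.6 and 20.9, and 36.0 pooled, and no IDR summit. Both replicates thus ordered the pair in the same way. The nearest IDR summit to the 5' end of iff-1 lay 18474 bp away, and the shared upstream region between iff-1 and cdk-1, a cell cycle kinase gene 278 bp away on the opposite strand, held only weak peaks. The iff-2 summit also lay in the promoter window of F54C9.14, on the opposite strand with its 5' end 934 bp from that of iff-2, and 654 bp upstream of the snoRNA gene F54C9.12. None of the 5 motifs occurred in the iff-2 window.

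Among the 11 eIF3 genes, the strongest peak was at eif-3.C, a core subunit, with 127 in replicate 2 and 129 in replicate 3 (270 pooled). At eif-3.B, another core subunit, it was 93.6 and 135 (219 pooled), with the summit 277 bp upstream and in no other coding gene's window. At eif-3.E it was 60.2 and 77.2 (146 pooled), and at eif-3.J, a loosely bound subunit, 56.3 and 36.6 (100 pooled). The eif-3.J summit lay 923 bp upstream, in the 3' UTR of slc-25A46, and was the weakest of the 14. The other 7 eIF3 genes had no IDR summit: eif-3.D (30.4 and 25.3) and eif-3.G (15.7 and 18.9) had summits in both replicates, eif-3.H (30.0) and eif-3.I (54.4) in replicate 2 only, the latter at 89.9 pooled, just under the weakest IDR signal, and eif-3.F, eif-3.K and eif-3.L in no list. A pooled peak of signal 97.2, just under the weakest IDR signal, overlapped the eif-3.G window with its summit outside it. IDR summits thus lay at some subunit genes of this one complex, weaker summits at others, and none at eif-3.F, eif-3.K and eif-3.L.

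None of the eIF2 genes had an IDR summit, which 7.10% of all coding genes had. Coding genes with a pooled summit but none in the IDR list had a median pooled signal of 40.4. Of the 5 genes for eIF2 and the other carriers of initiator tRNA, 3 had summits in both full replicate lists, against 22.6% of coding genes. eif-2alpha, whose product is the regulatory subunit phosphorylated under stress, had 21.6 and 20.1 (40.5 pooled), eif-2gamma, the GTP-binding subunit, 35.3 and 20.8 (49.9 pooled), and eif-2beta 21.2 in replicate 3 alone (29.3 pooled). eif-2A and eif-2D, for other proteins that can bring initiator tRNA, had 39.8 and 28.3 (64.4 pooled) and 26.0 in replicate 3 alone. No gene of this group came within the range of the IDR list. Of the genes for the exchange factor eIF2B, eif-2Bgamma had 55.6 and 69.1 (129 pooled) and eif-2Bbeta 61.9 and 38.9 (109 pooled). The replicates ordered these 2 genes differently. The eif-2Bgamma summit lay 955 bp upstream in an intron of C15F1.5, with sup-39 and mir-1831, both annotated as snRNA genes, starting 45 bp and 52 bp away. The eif-2Bbeta summit lay 38 bp from the 5' end of Y47H9C.8 and 166 bp from that of eif-2Bbeta. The remaining eIF2B subunit genes had no IDR summit, and eif-2Balpha had 26.6 and 21.4 (47.0 pooled). eif-2Bepsilon, the catalytic subunit, had 45.4 and eif-2Bdelta 37.5, both in replicate 2 alone.

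Of the genes for cap recognition, only ife-2, a somatic eIF4E, had an IDR summit, with 42.5 in replicate 2, 59.8 in replicate 3 and 106 pooled, 252 bp upstream. ife-4, another somatic form, had 34.9 in replicate 2 (rank 5928) and 55.8 in replicate 3 (rank 1722), and 78.0 pooled. Both genes had summits in both full replicate lists. Among the 2268 strongest peaks of each replicate, both were included in replicate 3 and left out in replicate 2. The ranks of ife-2 were 1494 in replicate 3 and 4002 in replicate 2. The forms enriched in the germ line were lower: ife-1 had 28.4 and 19.9, ife-3 had 33.3 in the pooled list alone, and ife-5 had no summit in any list. An IDR peak of signal 334 lay 1097 bp upstream of ife-3, outside its window and in that of B0348.10. ifg-1, for the scaffold eIF4G, had 30.5 and 29.2, and inf-1, for the helicase eIF4A, 17.6 and 20.9. eif-4A3, a related helicase of the exon junction complex, had 35.3 and 44.3 (74.0 pooled). For start codon selection, eif-1 had 42.1 and 28.8 and eif-1.A 28.0 and 19.7, and eif-6, which keeps free large subunits apart from small ones, had 20.0 and 38.0. None of these 3 had an IDR summit.

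In mitochondrial elongation gfm-1, for the mitochondrial form of EF-G, had 63.8 in replicate 2 and 69.5 in replicate 3 (137 pooled), 179 bp upstream in a region shared with rict-1, the Rictor gene. tufm-2, for a mitochondrial EF-Tu, had 64.1 and 39.5 (93.9 pooled) and fell just outside the IDR list. tufm-1 had 36.6 in replicate 2 only, and tsfm-1, for EF-Ts, had no summit in any list. Of the 45 genes, eif-3.F, eif-3.K, eif-3.L, ife-5 and tsfm-1 (11.1%) had no summit in any of the 4 lists, against 50.8% of coding genes.

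The replicates could be compared at the genes with a summit in both, 31 of the 45, although their scores are scaled separately. Replicate 2 over replicate 3 had a median of 1.12 (log2 0.16, SD 0.49), close to the 1.11 of all 4513 such coding genes (log2 0.16, SD 0.61). Over the 14 with an IDR summit it was 0.95 (log2 −0.07, SD 0.39), beside 1.16 (log2 0.22, SD 0.56) for coding genes with an IDR summit. iff-2, eef-1A.2 and eef-1A.1 were in that order the strongest factor genes in replicate 2, in replicate 3 and in the pooled list, while the order below them changed. Next came eef-2 in replicate 2 and eif-3.B in replicate 3. As a description, Spearman's rho between replicates was 0.89 over the 14 genes and 0.54 over the 17 with summits in both replicates but none in the IDR list. Pooled signal was 100 or above at the 14, while factor genes with no IDR summit reached at most 94.5. Over coding genes it was at least 98.0 with an IDR summit and at most 97.9 without. A difference between the 14 and the 17 in values or positions therefore cannot be separated from peak strength, and was not tested. Among coding genes with an IDR summit the log2 ratio ran from −2.48 to 3.20, and summits lay up to 1071 bp apart. The 14 were placed to a median of 18.5 bp between replicates, against 29.0 bp for coding genes with an IDR summit. The other 17 were placed to 103 bp, against 116 bp for coding genes with summits in both replicates and none in the IDR list. Of those 17, 5 (29.4%) had summits within 50 bp of each other, close to the 27.2% of such coding genes. At ife-1 the summits lay 959 bp apart, so a summit in both replicates need not be the same peak.

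**Figure D2:**
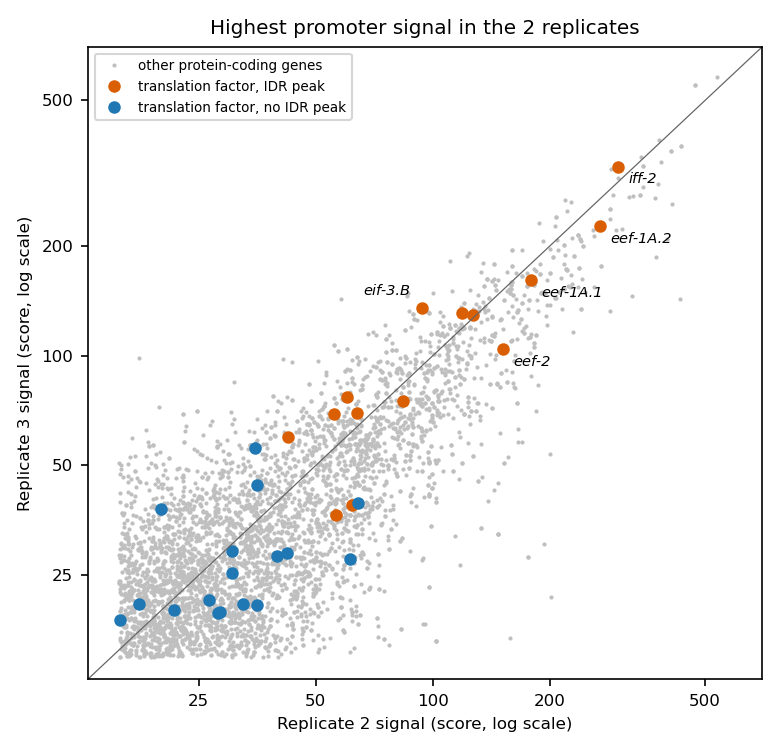
Highest promoter signal of each gene in replicate 2 (x axis) against replicate 3 (y axis), both scores on log scales, for translation factor genes with and without an IDR peak and for all other coding genes with a summit in both replicates; the line marks equal scores and is a guide only, since the lists are scaled separately. iff-2 and both eEF1A genes lie at the upper right, and the genes with no IDR peak reach at most 64.1 in replicate 2 and 55.8 in replicate 3.

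Positions are given from the annotated gene starts, which in C. elegans are often trans-splice sites downstream of the start of transcription. Over the 14 genes the median position was 216 bp upstream, from 955 bp upstream to 24 bp downstream, against 267 bp upstream over coding genes with an IDR summit. More than 500 bp upstream lay 2 of 14 (14.3%), eif-2Bgamma and eif-3.J, against 23.7% of those coding genes. Of the 14 summits, 8 (57.1%) also lay in the promoter window of another coding gene, against 48.0% for coding genes with an IDR summit. By upstream neighbour, 4 of the 15 factor genes with a divergent neighbour within 500 bp had an IDR summit, where 16.7% of coding genes so placed did. With a divergent neighbour farther away it was 4 of 11 (9.14% of coding genes). With an upstream neighbour on the same strand it was 2 of 7 within 500 bp (4.47%) and 4 of 10 beyond (4.48%), and it was 0 of 2 where the neighbour overlapped (4.07%). By chromosome, 5 of 13 factor genes on chromosome I had one (9.94% of coding genes there), 4 of 13 on II (6.76%), 2 of 9 on III (9.92%), 0 of 2 on IV (6.16%), 1 of 5 on V (4.87%) and 2 of 3 on X (7.03%).

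**Figure D3:**
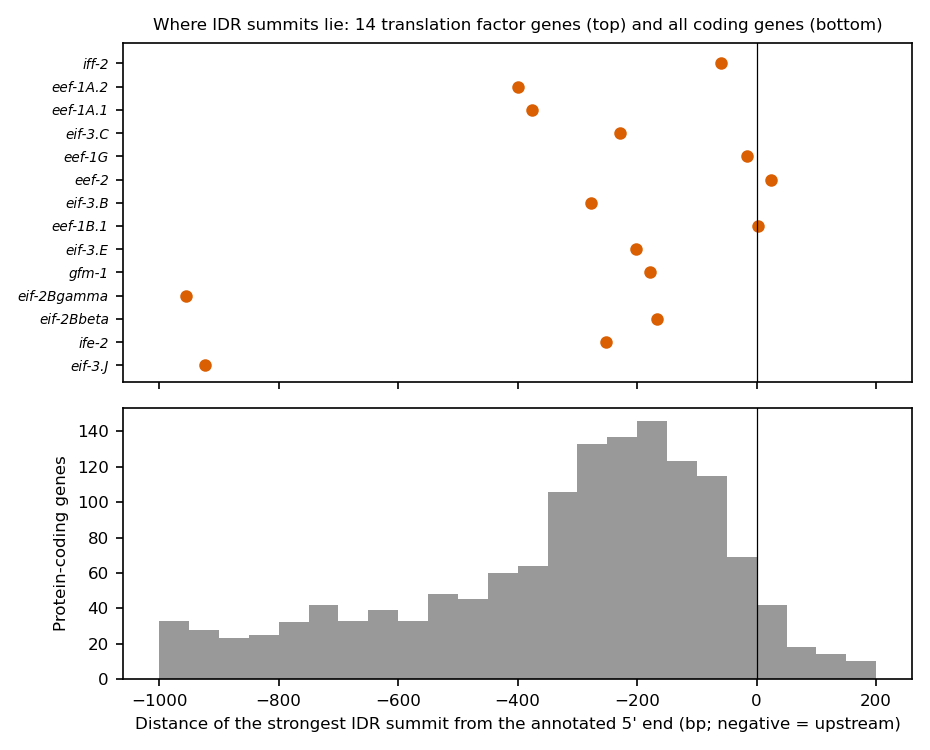
Distance of the IDR summit from the annotated 5' end (bp, negative upstream) of each translation factor gene, with the distribution over all coding genes for comparison. The 14 summits run from 955 bp upstream to 24 bp downstream, with 12 of them between 500 bp upstream and 100 bp downstream.

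Each of the motifs was in at most 4 of the 14 windows of 201 bases. GAGAGA was in 4 of 14 windows (28.6%; eef-1A.1, eef-1A.2, eif-2Bbeta and gfm-1), against 45.4% of all IDR summit windows and 39.3% of those in coding promoters. TTTCAG was in 3 (21.4% against 15.3%), TATAAA in 2 (14.3% against 10.8%), GCGCGC in 1, at eif-3.E (7.14% against 11.6%), and CACGTG in 0 (8.16% of all windows). In IDR windows of coding promoters the shares were 17.2%, 12.1%, 14.1% and 7.20%, in the same order. These matches describe letters in the window and draw nothing about a binding factor. When 8-base words were looked for after the values had been seen, TACGCAAA was in the windows of eef-1A.2, eef-1G, eif-3.B and eif-3.J, 4 of 14, and in 1.59% (36) of all IDR windows and 2.52% of those in coding promoters. It was picked from 2418 different words, of which 4 others were also in 4 windows, so its sharing is a description of these windows only. It can be read on the strand of eef-1A.2 above. The median GC content was 44.0% at the 14 windows, 44.3% over IDR windows in coding promoters and 46.3% over all IDR windows. In each of the 14 windows at least 90% of the 31-base words occur once in the genome, against 89.1% of all IDR windows that reach this share.

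Other genes of protein synthesis were counted in the same way. Cytosolic ribosomal protein genes had an IDR summit at 47 of 81 (58.0%, 46.5% to 68.9%), mitochondrial ribosomal protein genes at 11 of 70 (15.7%, 8.11% to 26.4%) and aminoacyl-tRNA synthetase genes at 4 of 31 (12.9%, 3.63% to 29.8%). The translation factors thus lay between the cytosolic ribosomal proteins and the other 2 lists in share. The interval of the cytosolic ribosomal proteins starts at 46.5% and that of the factors ends at 46.6%, so they barely overlap. The intervals of the other 2 lists overlap that of the factors more widely, and no difference between lists was tested. In the list of termination and control factors 4 of 17 had one (23.5%, 6.81% to 49.9%): larp-1, which binds mRNAs of the translation machinery, at 420, pab-2 at 218, pek-1, the PERK kinase of eIF2 alpha, at 114, and the release factor erfa-1 at 99.6. Factors under other names were added after the members' values had been seen: drr-2 (eIF4H) had an IDR summit, with 285 in replicate 2, 252 in replicate 3 and 560 pooled. egl-45 (eIF3a), cif-1 (eIF3m) and iffb-1 (eIF5B) had none, with pooled signals of 47.9, 38.5 and 32.6. Of the replicates, these genes had a summit in replicate 2 only, at 41.4, 32.4 and 31.9.

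**Figure D4:**
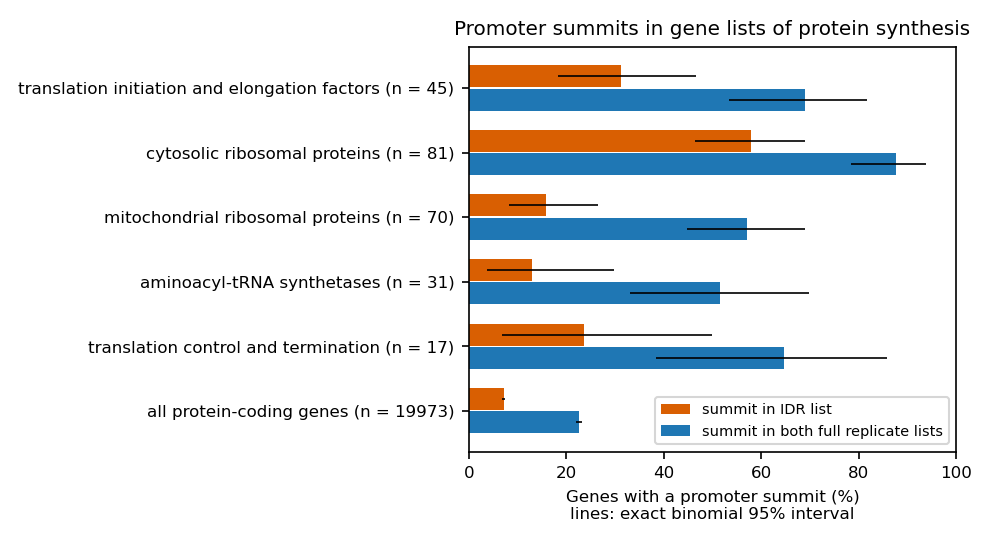
Percent of genes with a promoter summit in the IDR list and in both full replicate lists, for the translation factors, other lists of protein synthesis and all coding genes, with exact binomial 95% intervals. The factors (31.1% IDR) lie below cytosolic ribosomal proteins (58.0%) and above all coding genes (7.10%).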

How the data were processed

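Chromatin immunoprecipitation with an antibody against GFP was sequenced in 2 biological replicates of 1 group, per the labels, with sonicated chromatin. The authors deposited 4 peak lists on ce11: per the file headers, each replicate was called against 1 control alignment, the pooled list on both, and the IDR list was derived from these. The sources used here do not name the caller, aligner or threshold. Signal, as deposited, is a score of unstated scaling. Significance was deposited as a −log10 q-value whose highest value was 3.50 among IDR peaks. The control was not analysed here. Depth is unknown.

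Genes came from Ensembl release 115 (WBcel235). Summits were assigned with Python 3.11.15, numpy 2.4.6 and scipy 1.17.1, and figures drawn with matplotlib 3.10.9. The assignment was tested on simulated data. Named genes were every factor gene with an IDR summit, those in both replicates only, those in no list, the paralogues, the coding gene nearest to each IDR summit and non-coding genes holding it; others named were chosen after their values were seen. Alternatives were other windows, 5' ends, stronger peaks and each replicate alone. The genes and lists were chosen with earlier results of these data known.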

Additional observations from a re-analysis of the deposited data

How the results depend on the processing

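The count of 14 factor genes with an IDR summit was 12 to 16 under other windows, other 5' ends, overlap of intervals, assignment to the nearest gene and exclusion of summits in non-coding genes. The share of coding genes moved with these settings, from 7.10% to 5.35% in the window of 500 bp upstream to 100 bp downstream. It was 9.67% from 2000 bp upstream to 500 bp downstream, 7.79% with any 5' end, 7.78% by overlap and 5.32% by nearest gene. For the exclusion it was not computed. Among the 1134 strongest IDR peaks the count was 8, with 3.84% of coding genes. To leave out a replicate, the 2268 strongest peaks of the other replicate took the place of the IDR list. The count was 13 without replicate 2 (6.83% of coding genes) and 13 without replicate 3 (7.04%). eif-3.J was lost in both, eif-2Bbeta without replicate 2, and eif-2Bgamma and ife-2 without replicate 3. ife-4 was gained without replicate 2, and efk-1 and tufm-2 without replicate 3. eef-1A.1 and eif-2Bbeta were lost when a summit counted only for the nearest 5' end, and eef-1B.1 when summits in non-coding genes were left out. The count of 31 genes in both replicates was 24 to 35 under other windows and 5' ends (eif-3.I entered with the 5' end of any transcript), 10 among the strongest peaks and 12 at a −log10 q-value above 2. For those other windows and 5' ends the matching share of coding genes was not computed. The median pooled signal of 184 became 228 in the window of 500 bp upstream to 100 bp downstream, which drops the genes with distant, weak summits. The median log2 ratio was 0.16 or −0.07. No paired analysis was possible because there is only 1 group.

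With 2 replicates, no untagged list and no read totals, no value here has a test, and the absence of a summit does not show that the factor is absent.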
